A study of Mus musculus with 16 samples.

Results

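The Slc22 and Slco genes encode membrane carriers that move organic ions into and out of cells. Members were the probes on the array whose name in the deposited annotation begins Slc22a or Slco followed by a digit, together with BC014805, an older name of Slc22a26. There were 33 members, 18 of Slc22 and 15 of Slco, of 27669 genes on the array, and the probe with the highest mean signal over the 16 arrays stood for each. Total liver RNA of C57BL/6 males aged 3 months had been hybridised in 1 colour (Cy3) to whole mouse genome arrays from Agilent. Of the 16 arrays, 4 each belonged to GR knockout given dexamethasone (GRKO Dex), GR knockout without treatment (GRKO untreated), wild type given dexamethasone (WT Dex) and wild type without treatment (WT untreated). Dexamethasone is a synthetic glucocorticoid, and GR, the product of Nr3c1, is the nuclear receptor it binds. The labels call the mice liver knockouts of GR. The sources used here name no Cre line or promoter, no deleted part of the gene, and no dose, route or duration of dexamethasone. The protocol speaks of vehicle where the source labels say no treatment, and the titles of the knockout arrays carry the word PBS. No label says outright that each array came from a separate mouse, so p-values measure only the spread between these arrays.

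Slc22 carriers fall into organic cation transporters (OCT), zwitterion and carnitine transporters (OCTN) and organic anion transporters (OAT), while Slco genes encode the sodium-independent organic anion transporting polypeptides (OATP). In hepatocytes, OAT2 (Slc22a7) and the OATPs on the blood-facing membrane take up drugs, bile acids, bilirubin, steroid conjugates and other organic ions before metabolism and export into bile. Many other family members are known mainly from kidney tubule, brain, testis or endothelium. In mouse liver some are known to differ between the sexes, Slco1a1 being higher in males and Slco1a4 in females.

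Levels below are log2 signals relative to the 75th percentile of the same array, so that each number compares arrays for 1 probe and not probes with each other. That percentile lay between 502.7 and 662.6 intensity units on 14 arrays, and was 295.8 on GRKO untreated array 1 and 383.7 on WT untreated array 4. Between 56.6% and 67.3% of probes were well above background. Across genes, GRKO untreated array 1 had the lowest mean r with its own group, 0.963. Nr3c1 was lower in GRKO than in WT livers by a log2 difference of -1.97 with dexamethasone (SE 0.146, adjusted p = 6.06e-06) and -1.99 untreated (SE 0.146, adjusted p = 1.75e-05). On the further Nr3c1 probes A_51_P355693 and A_52_P63106 every GRKO array lay below every WT array. On A_52_P254174, GRKO Dex array 1 (-1.39) lay above all WT arrays (-2.80 to -2.02), and every other GRKO array lay below them. The 6 of 7 listed hepatocyte markers that had a probe were above background on every array. Of these, 3, Tat and Apoa1 among them, were lower in GRKO than in WT livers with dexamethasone. Untreated, 1 was lower in GRKO livers, and 2 were higher with dexamethasone in WT livers. In these comparisons 22.3%, 2.81% and 11.9% of all genes were called. Dexamethasone and genotype cannot be told apart from the slide, because no slide held arrays of more than 1 group. With 4 arrays a group, precision is limited by their number.

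Of the 33 members, 21 passed the filter, which asked for a signal well above background on 3 or more arrays in any of the groups. In 20 of them the probe was above background on all 16 arrays, and the exception was Slc22a19. The 12 members that did not pass were Slc22a2, Slc22a3, Slc22a14, Slc22a20, Slco1a6, Slco1c1, Slco4a1, Slco4c1, Slco5a1, Slco6b1, Slco6c1 and Slco6d1. Of these, 3 were above background on no array (Slco5a1, Slco6c1 and Slco6d1) and 9 on 1 to 4 arrays. None of the probes that stood for members was saturated on any array. All 5 members on chromosome 1 failed the filter, whereas 5 of the 6 on chromosome 19, 4 of the 6 on chromosome 6 and all 3 on chromosome 11 passed it. A filter met through 1 group favours genes that are high in that group, so counts over the 21 describe the members that could be tested and not the family.

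Between genotypes, 6 members were called with dexamethasone and 2 without treatment. With dexamethasone given to both genotypes, 6 of the 21 members passed the test between GRKO and WT livers (28.6%), beside 22.3% of all 18475 genes tested. Slc22a17, Slc22a26 and Slc22a6 were higher in GRKO Dex livers (14% of all genes were), and Slc22a19, Slco3a1 and Slc22a4 were lower (8.28% of all genes). Without treatment, Slc22a19 and Slc22a26 were higher in GRKO livers and no member was lower, so that 9.52% of members were called beside 2.81% of all genes (2.02% higher). Within the knockout, dexamethasone lowered Slc22a19 and Slco3a1 (9.52% of members, beside 3.55% of all genes, 2.32% lower). Within wild type, no member passed the limma test, against 11.9% of all genes, and 3 had an unadjusted p under 0.05. The response to dexamethasone differed between genotypes for Slc22a17 and Slc22a6, which had a higher change in GRKO (1.92% of all genes), and for Slc22a19, which had a lower one (2.66%), together 14.3% of members beside 4.58% of all genes. The share called with dexamethasone was close to that of all genes, and with so few members none of these shares was tested against the rest. The comparisons share groups (GRKO Dex enters 3 of the 5), so their calls are not independent of each other.

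In all, 13 of the 105 member results were called, and they belonged to 6 members. The median log2 change of the 21 members was -0.07 for dexamethasone in wild type (all genes -0.03), -0.14 for dexamethasone in the knockout (all genes 0.00), -0.06 for GRKO against WT untreated (all genes 0.05) and 0.08 with dexamethasone (all genes 0.09). These medians are given as a description and were not tested. The spread between arrays of 1 group (pooled SD) ran from 0.125 for Slco2b1 to 0.731 for Slco1a4, with a median of 0.388 against 0.316 over all genes.

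**Figure D1:**
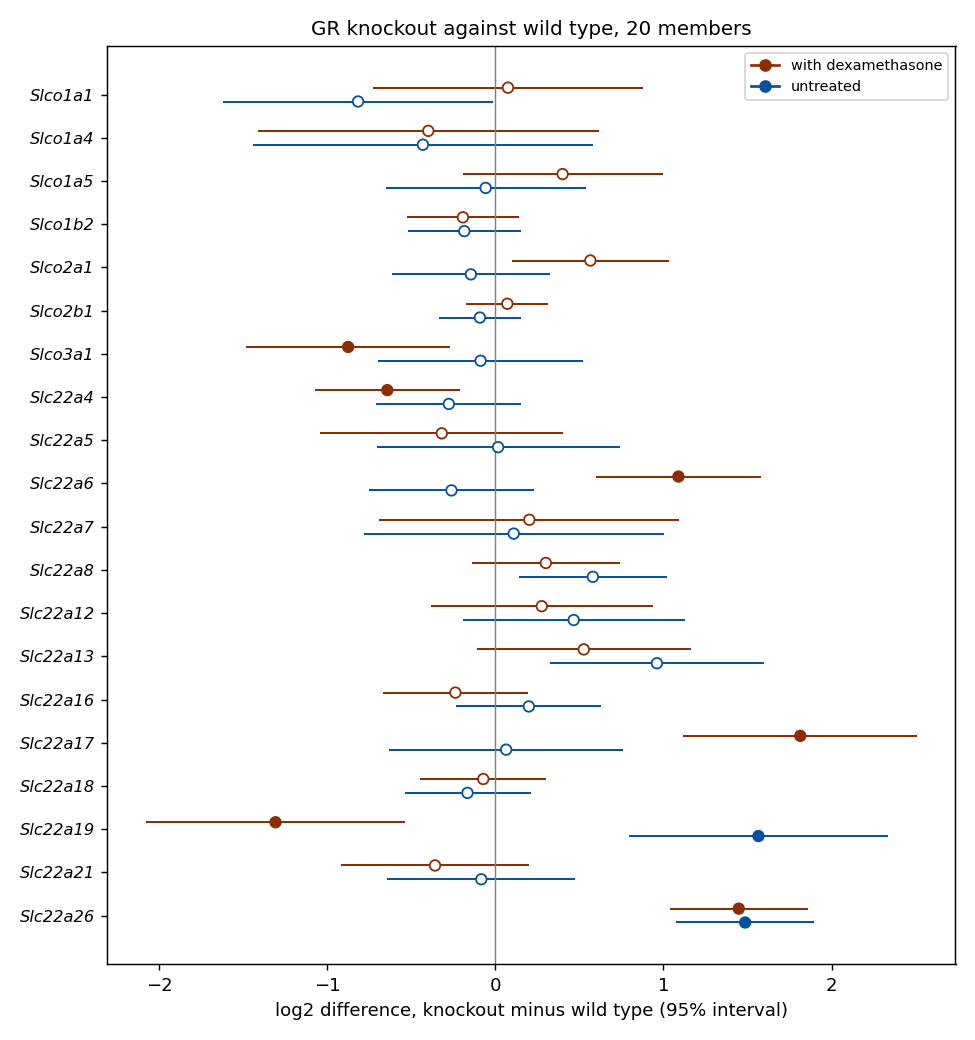
Log2 difference of GR knockout minus wild type with its 95% interval for 20 of the 21 members tested, with dexamethasone (brown) and untreated (blue), filled where the adjusted p was under 0.05. Slc22a26 lies to the right in both comparisons, while Slc22a17 and Slc22a6 do so with dexamethasone and Slc22a19 changes side.

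Slc22a26 was higher in GRKO than in WT livers with and without dexamethasone. It encodes a rodent member of the OAT branch and lies in a run of related genes on chromosome 19. Its level was -1.70, -1.13, -1.45 and -0.92 in GRKO Dex livers, -1.39, -1.58, -0.86 and -0.97 in GRKO untreated livers, -2.75, -2.96, -2.71 and -2.57 in WT Dex livers and -2.53, -2.84, -2.84 and -2.53 in WT untreated livers. All 8 GRKO arrays stood above all 8 WT arrays, and the treated and untreated arrays of each genotype overlapped. The difference was 2.73-fold with dexamethasone (log2 1.45, SE 0.191, adjusted p = 1.91e-04) and 2.8-fold untreated (log2 1.49, SE 0.191, adjusted p = 0.00205). The change with dexamethasone was -0.10 in GRKO (95% interval -0.51 to 0.31) and -0.06 in WT (-0.47 to 0.35). Both differences kept their call in all 13 other settings and without any 1 array. The deposited table, 1 of those settings, held the same values and could not give another result.

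The other probe for Slc22a26 gave the same direction and a larger difference. With every probe fitted as a feature of its own, a step chosen after the data were seen, A_52_P460393 was higher in GRKO livers by a log2 difference of 3.54 with dexamethasone (SE 0.425, adjusted p = 9.28e-05) and 3.08 untreated (SE 0.425, adjusted p = 0.00308). In that fit 20.5% of 26794 probes were called with dexamethasone and 2.34% untreated. Its level was -2.11, -1.04, -1.73 and -0.62 in GRKO Dex livers, -1.93, -1.72, -0.57 and -0.62 in GRKO untreated livers, -5.58, -4.96, -5.15 and -3.99 in WT Dex livers and -4.56, -4.36, -3.50 and -4.74 in WT untreated livers. Its signal was not well above background on 1 array of each WT group. Whether either probe also takes up RNA of the neighbouring related genes was not tested.

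**Figure D2:**
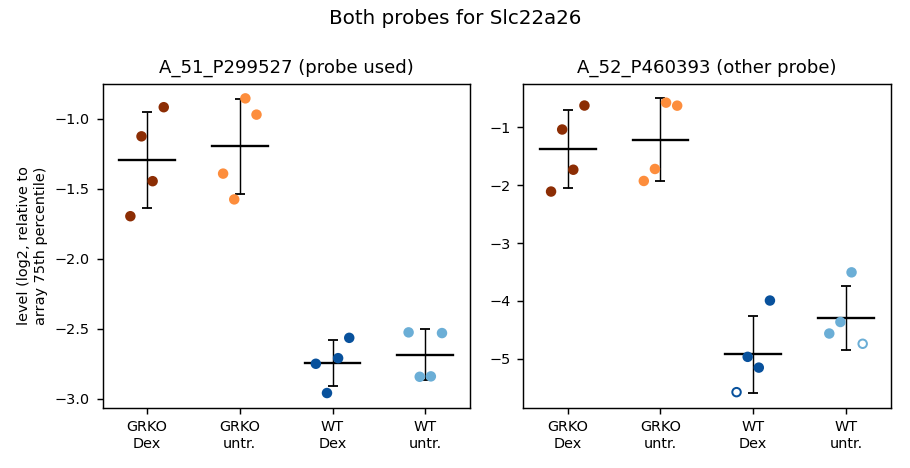
Level of both Slc22a26 probes on every array (log2, relative to the array's 75th percentile), with the mean (bar) and SD of each group of 4; open points are not well above background. On either probe every GRKO point lies above every WT point, and treated and untreated points of 1 genotype overlap.

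Slc22a26, Slc22a19 and Slc22a6 lie on chromosome 19. In the RefSeq annotation of GRCm38.p6, Slc22a19 (chr19:7673075-7711310) and Slc22a26 (chr19:7780094-7802667) are followed by Slc22a27, Slc22a28, Slc22a29 and Slc22a30, and then by Slc22a8 and Slc22a6 (chr19:8617996-8628299). The promoters of Slc22a26, Slc22a19 and Slc22a6 are shown because these are the members of chromosome 19 called between genotypes. Each runs from 250 bases before to 50 after the RefSeq start on GRCm38.p6, 5′ to 3′ on the strand of the gene. Capitals mark TGTTCT, the reverse complement of AGAACA, the core hexamer bound by one glucocorticoid receptor, in Slc22a26 (chr19:7802618-7802917, minus strand) and Slc22a19 (chr19:7711261-7711560, minus strand), and GTTAAT, the core hexamer of sites for the liver factor HNF1, in Slc22a6 (chr19:8617746-8618045, plus strand).
Slc22a26 promoter: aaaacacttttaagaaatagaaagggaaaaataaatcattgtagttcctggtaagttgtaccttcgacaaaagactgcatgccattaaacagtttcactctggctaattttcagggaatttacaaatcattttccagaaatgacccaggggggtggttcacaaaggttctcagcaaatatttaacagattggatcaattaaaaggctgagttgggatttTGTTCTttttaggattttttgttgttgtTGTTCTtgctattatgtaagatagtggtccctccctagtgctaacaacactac
Slc22a19 promoter: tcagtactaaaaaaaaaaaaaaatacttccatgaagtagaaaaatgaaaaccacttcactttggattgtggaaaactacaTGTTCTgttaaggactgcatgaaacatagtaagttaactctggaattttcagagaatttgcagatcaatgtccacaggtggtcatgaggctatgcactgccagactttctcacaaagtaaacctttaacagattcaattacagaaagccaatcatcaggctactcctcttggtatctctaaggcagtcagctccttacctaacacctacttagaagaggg
Slc22a6 promoter: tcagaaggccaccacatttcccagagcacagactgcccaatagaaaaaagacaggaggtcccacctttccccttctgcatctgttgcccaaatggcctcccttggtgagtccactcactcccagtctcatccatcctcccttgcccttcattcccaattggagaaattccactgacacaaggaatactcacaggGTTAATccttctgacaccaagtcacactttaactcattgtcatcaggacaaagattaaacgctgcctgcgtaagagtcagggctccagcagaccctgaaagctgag
Counted from the start, with -1 the last base before it, the matches begin at -31 and -3 in Slc22a26, at -170 in Slc22a19 and at -56 in Slc22a6. On both strands, AGAACA was found in 19.0% of all 32851 promoters of this length and in 6 of the 32 promoters of 28 members (Slc22a18, Slc22a19, Slc22a26, Slco2b1, Slco4a1 and Slco4c1). GTTAAT was found in 7.10% of all promoters and in 3 member promoters (Slc22a6, Slc22a8 and Slco1b2). The palindromic glucocorticoid response element was searched in a loose form (GNACA, any 3 bases, TGTNC) and a strict form (AGAACA, any 3 bases, TGTTCT), both of which can overlap AGAACA, and no member promoter held either, against 0.475% and 0.009% of all promoters. The longer HNF1 motif (GTTAAT, any base, ATTA), which contains GTTAAT, was found in no member promoter and in 0.14% of all. Of the other members called between genotypes, the Slc22a17 promoter (not shown) held no match, and Slc22a4 and Slco3a1 are not among the members with a match. These are matches of letters only.

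Slc22a19 fell with dexamethasone in GRKO livers, on a dim probe. It encodes OAT5, known as an organic anion carrier of the rodent kidney. Its level was -3.84, -5.09, -5.80 and -5.50 in GRKO Dex livers, -2.12, -3.17, -3.41 and -3.09 in GRKO untreated livers, -3.86, -3.82, -3.51 and -3.81 in WT Dex livers and -4.48, -4.99, -4.23 and -4.33 in WT untreated livers. The signal was well above background on 1, 4, 4 and 2 of the 4 arrays of these groups. GRKO Dex arrays were all below GRKO untreated arrays, whereas WT Dex arrays were all above WT untreated arrays.

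Dexamethasone lowered Slc22a19 in GRKO livers by a log2 change of -2.11 (SE 0.361, adjusted p = 0.00652). In WT livers the change was 0.76 (SE 0.361, adjusted p = 0.196). The difference between these responses was -2.87 (SE 0.51, adjusted p = 0.00693). GRKO livers were lower than WT livers with dexamethasone (log2 -1.31, SE 0.361, adjusted p = 0.0184) and higher without treatment (log2 1.56, SE 0.361, adjusted p = 0.0348). With normexp background correction none of these 4 calls was made, and the log2 values were -0.33, -0.60, -0.02 and 0.59 in the same order, with adjusted p between 0.596 and 0.971. The fall in GRKO livers was also not called with only the GRKO arrays in the fit, the untreated difference was lost without any 1 of 7 arrays, and that with dexamethasone was lost without either of 2. Because GRKO Dex had 1 array above background, the size of its fall rests mostly on signals that were not well above background.

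The probe for Slc22a19 spans 824 bases on mm7 (chr19:7502780-7503603, minus strand), so its 60 bases cross at least 1 splice junction and match spliced RNA.
Slc22a19 probe A_52_P94633: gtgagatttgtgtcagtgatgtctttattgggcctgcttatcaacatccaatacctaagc

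**Figure D3:**
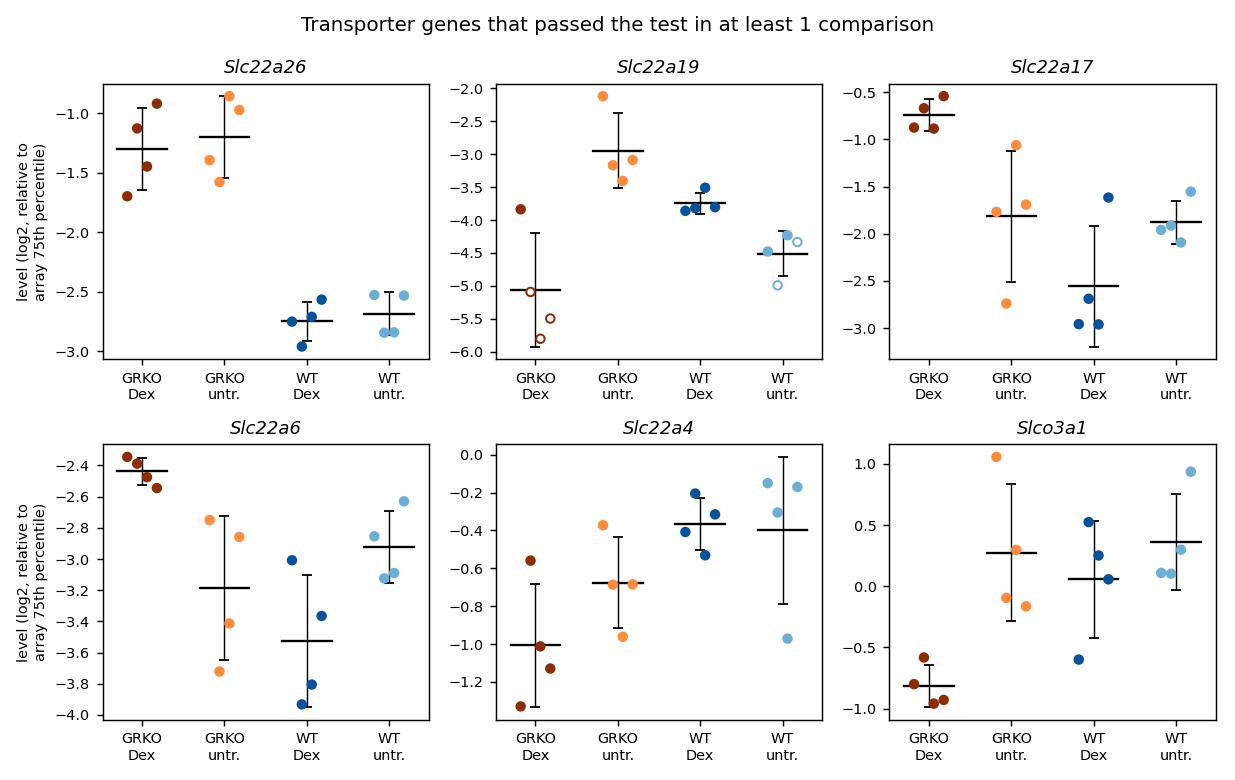
Level of the 6 members called in at least 1 comparison on every array (log2, relative to the array's 75th percentile), with the mean (bar) and SD of each group of 4; open points are not well above background. Slc22a26 separates by genotype, Slc22a17 and Slc22a6 are highest and Slco3a1 lowest in GRKO Dex livers, and 3 of 4 Slc22a19 points of GRKO Dex are open.

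Slc22a17 was higher in GRKO Dex livers than in any other group. It encodes the receptor for lipocalin-2, an iron-siderophore carrier protein, and is named for its similarity to the organic cation carriers. Its level was -0.87, -0.67, -0.89 and -0.54 in GRKO Dex livers, -1.77, -2.74, -1.06 and -1.69 in GRKO untreated livers, -2.96, -2.69, -2.96 and -1.62 in WT Dex livers and -1.96, -1.91, -2.09 and -1.55 in WT untreated livers. Every GRKO Dex array lay above all other arrays, while the other 3 groups overlapped.

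With dexamethasone Slc22a17 was 3.52-fold higher in GRKO than in WT livers (log2 1.81, SE 0.325, adjusted p = 0.0015), and untreated the difference was 0.06 (95% interval -0.63 to 0.76). The change with dexamethasone was 1.07 in GRKO (SE 0.325, adjusted p = 0.0869) and -0.68 in WT (SE 0.325, adjusted p = 0.202), neither of which passed the test. Their difference did pass (log2 1.75, SE 0.46, adjusted p = 0.0433), but the call was lost without any 1 of 13 arrays and in 4 other settings, with adjusted p up to 0.091, and with every probe as a feature the adjusted p was 0.0502. The difference from WT Dex kept its call without any 1 array and in all 13 settings. Of those settings, the deposited table held the same values. The mean of a gene's probes used only the probe that passed the filter, so neither setting could move the difference.

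The array holds a further probe for Slc22a17, which was above background on none of the 16 arrays and so gives no check of these values. The probe used spans 315 bases on mm7 (chr14:49774520-49774834, minus strand) and crosses a splice junction, while the other lies within 60 bases (chr14:49775511-49775570, minus strand). Both are given since they disagree on whether the gene is detected.
Slc22a17 probe A_51_P111907: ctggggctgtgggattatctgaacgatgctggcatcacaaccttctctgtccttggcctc
Slc22a17 probe A_51_P111902: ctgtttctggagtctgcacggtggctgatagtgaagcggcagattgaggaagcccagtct

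Slc22a6, which encodes OAT1, the organic anion carrier of the kidney proximal tubule, was also highest in GRKO Dex livers. Its level was -2.35, -2.39, -2.48 and -2.55 in GRKO Dex livers, -2.75, -3.72, -3.41 and -2.86 in GRKO untreated livers, -3.01, -3.93, -3.81 and -3.37 in WT Dex livers and -2.85, -3.12, -3.09 and -2.63 in WT untreated livers. GRKO Dex arrays again lay above all others, and the other groups overlapped. With dexamethasone Slc22a6 was 2.13-fold higher in GRKO than in WT livers (log2 1.09, SE 0.23, adjusted p = 0.00418), a call kept without any 1 array and in all 13 settings. As for Slc22a17, the deposited table and the mean of a gene's probes could not move this difference. Untreated the difference was -0.26 (95% interval -0.75 to 0.23).

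The log2 change of Slc22a6 with dexamethasone was 0.75 in GRKO livers (SE 0.23, adjusted p = 0.0914) and -0.60 in WT livers (SE 0.23, adjusted p = 0.105). The change in GRKO was called with quantile scaling (0.81, adjusted p = 0.0257), with array weights (1.08, adjusted p = 0.00447), without both dim arrays (0.89, adjusted p = 0.0392) and without GRKO untreated array 1 alone (0.89, adjusted p = 0.041). The responses in the genotypes differed by 1.35 (SE 0.325, adjusted p = 0.0289). That call was lost without any 1 of 7 arrays, without the filter, and with normexp correction, where the adjusted p reached 0.269. The summed level of 6 kidney tubule markers was 0.21 to 0.38 in GRKO Dex livers, -0.14 to 0.15 in GRKO untreated livers, -0.56 to -0.24 in WT Dex livers and -0.31 to 0.54 in WT untreated livers, whose range reached above that of GRKO Dex. Of the 4 of 6 listed that could be tested, Aqp2 (log2 0.72, adjusted p = 0.00179) and Slc12a1 (log2 1.89, adjusted p = 0.0316) were higher in GRKO than in WT livers with dexamethasone and none was called in the other comparisons. Between genotypes with dexamethasone, 22.3% of all genes were called. Slc12a1 was above background on no WT array and passed the filter only through GRKO arrays. Its size therefore rests on WT signals that were not well above background. Slc34a1, a defining marker of the proximal tubule, was above background on no array. The part of kidney RNA in the levels of Slc22a6 and Slc22a19 was not tested.

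Of the other kidney-type anion carriers, Slc22a8 (OAT3), Slc22a12 (the urate carrier URAT1) and Slc22a13 (OAT10) were above background on all arrays with the probe used, and passed no test. Slc22a8 had 3 probes, and those not used were above background on 0 (A_52_P176956) and 1 (A_52_P295475) of the 16 arrays. The Slc22a8 probes thus disagree on whether the gene is detected. Slc22a13 averaged -3.10 ± 0.75 in GRKO Dex, -2.73 ± 0.25 in GRKO untreated, -3.62 ± 0.33 in WT Dex and -3.69 ± 0.28 in WT untreated livers (SD, n = 4 each). All 4 GRKO untreated arrays (-2.99 to -2.48) lay above the WT untreated arrays (-3.88 to -3.27), with a log2 difference of 0.96 and an adjusted p of 0.0961. Slc22a8 differed by 0.58 untreated (adjusted p = 0.14) and by 0.30 with dexamethasone (adjusted p = 0.326). Slc22a12 differed by 0.47 untreated (95% interval -0.20 to 1.13) and by 0.28 with dexamethasone (-0.39 to 0.94).

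The OATPs and OAT2 that bring substrates into hepatocytes passed no test in any comparison. Slco1b2, which encodes the rodent counterpart of the human OATP1B carriers for bilirubin, bile acids and statins, had levels of 7.41, 8.06, 8.06 and 7.60 in GRKO Dex, 8.38, 8.22, 8.004 and 8.27 in GRKO untreated, 7.98, 7.75, 8 and 8.17 in WT Dex and 8.45, 8.41, 8.24 and 8.52 in WT untreated livers. All WT Dex arrays lay below all WT untreated arrays, whereas the GRKO groups overlapped. Dexamethasone changed it by a log2 value of -0.44 in GRKO (95% interval -0.77 to -0.10, adjusted p = 0.153) and -0.43 in WT (-0.76 to -0.09, adjusted p = 0.0922). The responses differed by -0.01, with an interval of -0.48 to 0.47.

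Slco2b1, an OATP for steroid sulphates, changed by -0.14 with dexamethasone in GRKO (95% interval -0.38 to 0.11) and -0.30 in WT (-0.54 to -0.06, adjusted p = 0.105). Its levels were 5.07 to 5.56 in GRKO Dex, 5.38 to 5.52 in GRKO untreated, 5.14 to 5.33 in WT Dex and 5.47 to 5.61 in WT untreated livers. The WT groups did not overlap and the GRKO groups did. Slc22a7 (OAT2) was 4.34, 3.94, 3.08 and 2.37 in GRKO Dex livers, 4.65, 4.13, 3.77 and 4.28 in GRKO untreated livers, 2.70, 2.56, 4.04 and 3.61 in WT Dex livers and 4.53, 3.56, 3.84 and 4.46 in WT untreated livers. The treated arrays spread over more than 1 log2 unit in both genotypes. The change with dexamethasone was -0.78 in GRKO (interval -1.67 to 0.12) and -0.87 in WT (-1.76 to 0.02), and neither interval lay wholly below 0.

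Slco1a1 and Slco1a4 encode hepatic OATPs for bile acids and steroid conjugates, with opposite sex bias in mouse liver. Slco1a1 was 2.96, 3.44, 3.69 and 3.12 in GRKO Dex livers, 3.09, 3.66, 3.38 and 1.29 in GRKO untreated livers, 3.15, 3.35, 3.44 and 2.97 in WT Dex livers and 3.58, 3.83, 3.74 and 3.53 in WT untreated livers. GRKO untreated array 4 lay below all other arrays, and the other Slco1a1 probe was also lowest of its group there (0.31, against 1.66 to 2.72). The untreated genotype difference was -0.82 (interval -1.62 to -0.01, adjusted p = 0.249). Slco1a4, which had the largest SD within groups of the 21 members, ran from -0.72 to 1.499 over the 16 arrays, and dexamethasone changed it by 0.42 in GRKO (-0.60 to 1.43) and 0.39 in WT (-0.63 to 1.40). Slco1a5, a related OATP, changed by 0.61 in GRKO (0.02 to 1.21, adjusted p = 0.283) and 0.15 in WT (-0.44 to 0.75). The other Slco1a5 probe was above background on 0 of the 16 arrays.

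**Figure D4:**
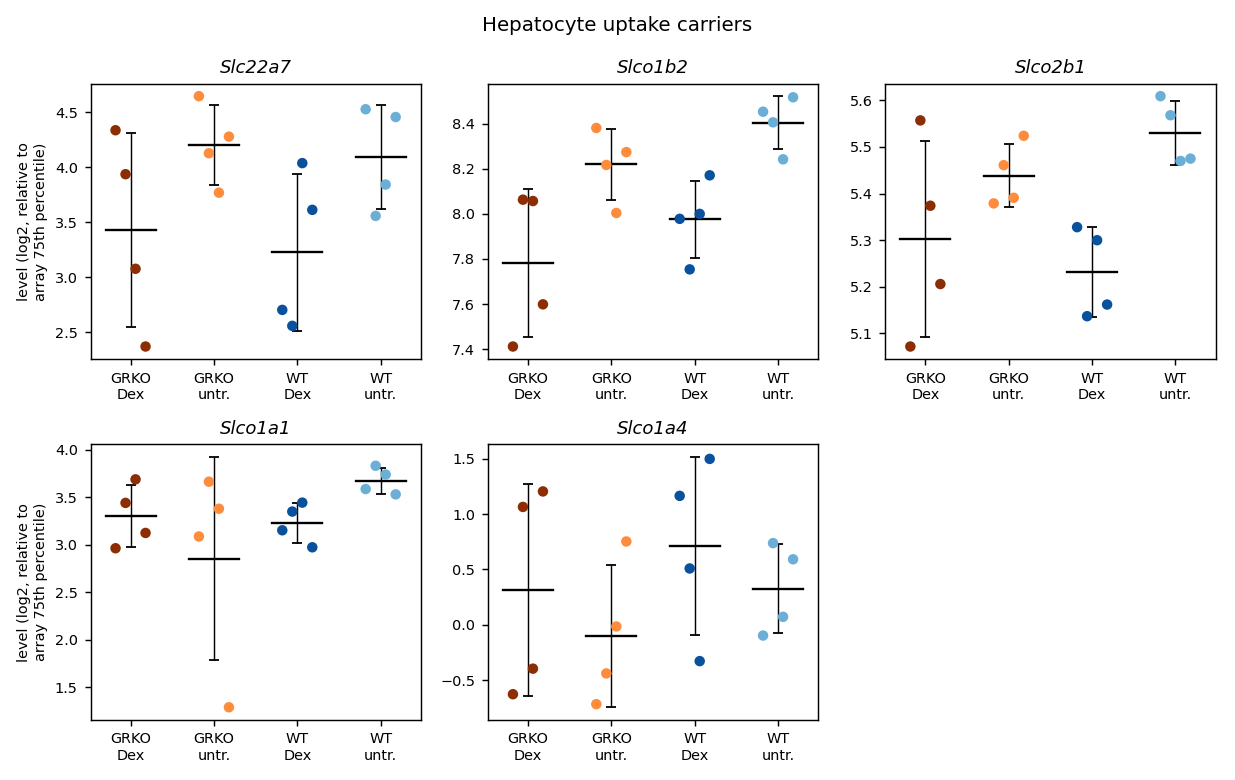
Level of 5 hepatocyte uptake carriers on every array (log2, relative to the array's 75th percentile), with the mean (bar) and SD of each group of 4. No member shown passed the test in any comparison; treated points lie lower on average for Slco1b2, Slco2b1 and Slc22a7, and 1 GRKO untreated point of Slco1a1 lies at 1.29.

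Slco3a1, a widely expressed OATP of prostaglandins and thyroxine, was low in GRKO Dex livers. Its level was -0.80, -0.58, -0.96 and -0.93 there, 1.06, -0.10, 0.30 and -0.16 in GRKO untreated livers, -0.60, 0.53, 0.25 and 0.06 in WT Dex livers and 0.11, 0.10, 0.30 and 0.94 in WT untreated livers. GRKO Dex arrays lay below all GRKO untreated arrays, and 1 WT Dex array reached down to them. Dexamethasone lowered it in GRKO livers by a log2 change of -1.09 (SE 0.285, adjusted p = 0.0484), beside -0.30 in WT livers (SE 0.285, adjusted p = 0.543), and these responses were not shown to differ (-0.79, adjusted p = 0.356). With dexamethasone it was lower in GRKO than in WT livers (log2 -0.88, SE 0.285, adjusted p = 0.0394), and untreated the difference was -0.09 (95% interval -0.70 to 0.52). Both calls lay close to the threshold. The first was lost in 5 other settings and without any 1 of 12 arrays, the second in 3 settings and without any 1 of 7 arrays, and over all arrays left out in turn the log2 values were -1.24 to -0.83 and -1.09 to -0.72. The 4 T cell markers had a summed level of -0.42 to -0.03 in GRKO Dex, 0.40 to 0.99 in GRKO untreated, 0.09 to 0.44 in WT Dex and 0.13 to 0.43 in WT untreated livers, and 1 of the 4 fell with dexamethasone in each genotype (Cd3e in GRKO and Cd3g in WT). Between GRKO and WT livers with dexamethasone Cd3e was lower (log2 -0.69, adjusted p = 0.0015), while the median over the 4 was 0.44, so the sum and the median differ in direction. For B cell markers the ranges were -1.27 to -0.81 in GRKO Dex, -0.29 to 1.1 in GRKO untreated, -1.76 to -1.27 in WT Dex and -0.59 to -0.31 in WT untreated livers, and 2 of 4 fell in each genotype. Over all genes, 3.55% were called for dexamethasone in GRKO, 11.9% in WT and 22.3% between genotypes with dexamethasone. The part of T and B cells in the level of Slco3a1 was not tested.

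Slco2a1, the prostaglandin transporter, is known from endothelium. Its level was 3.41, 3.35, 3.56 and 4.15 in GRKO Dex livers, 3.14, 3.69, 3.41 and 2.68 in GRKO untreated livers, 2.64, 3.20, 3.13 and 3.22 in WT Dex livers and 3.33, 3.44, 3.49 and 3.26 in WT untreated livers. With dexamethasone all GRKO arrays lay above all WT arrays, with a log2 difference of 0.57 (SE 0.219) and an adjusted p of 0.0792 that missed the threshold. The other Slco2a1 probe was above background on all 16 arrays, and on it these groups overlapped (0.15 to 0.87 in GRKO Dex, -0.19 to 0.21 in WT Dex). With every probe fitted as a feature its difference was 0.28 (SE 0.188, adjusted p = 0.318). Endothelial markers Lyve1 (log2 2.58 in GRKO and 2.41 in WT) and Kdr (-1.02 and -1.12) changed with dexamethasone in both genotypes, and none of the 6 listed was called between genotypes. Of all genes, 3.55% were called for dexamethasone in GRKO and 11.9% in WT. Between genotypes the shares were 22.3% with dexamethasone and 2.81% untreated. In whole liver, fewer cells of a type and less RNA per cell cannot be told apart.

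Among the OCTN carriers, Slc22a4, which takes up ergothioneine, was lower in GRKO than in WT livers with dexamethasone (log2 -0.64, SE 0.202, adjusted p = 0.0338). Its level was -1.33, -0.56, -1.01 and -1.13 in GRKO Dex livers, -0.37, -0.69, -0.96 and -0.68 in GRKO untreated livers, -0.41, -0.20, -0.53 and -0.32 in WT Dex livers and -0.15, -0.30, -0.97 and -0.17 in WT untreated livers. With dexamethasone the genotypes did not overlap, though GRKO Dex array 2 lay close to the lowest WT Dex array. Untreated the difference was -0.28 (95% interval -0.71 to 0.15). The call was lost without any 1 of 6 arrays, with normexp correction and without the filter, with adjusted p up to 0.0985.

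Slc22a5, the carnitine carrier OCTN2, and Slc22a21, its mouse relative OCTN3, lie beside Slc22a4 on chromosome 11 and passed no test. Slc22a5 averaged 0.36 ± 0.45 in GRKO Dex, 0.77 ± 0.38 in GRKO untreated, 0.68 ± 0.74 in WT Dex and 0.75 ± 0.41 in WT untreated livers (SD, n = 4 each). The Slc22a21 probe shares a run of 33 bases with the other Slc22a5 probe, so these signals may not be separate. Of 13 genes of carnitine synthesis and the fatty acid shuttle, Crot alone was called, higher in GRKO than in WT livers with dexamethasone (log2 0.97, adjusted p = 0.00931). In that comparison 22.3% of all genes were called. Slc22a16, known as a carnitine carrier of human testis, and Slc22a18, an imprinted gene on distal chromosome 7, also passed no test. Slc22a16 changed with dexamethasone by -0.49 in GRKO (95% interval -0.92 to -0.06, adjusted p = 0.225) and -0.05 in WT (-0.49 to 0.38), and Slc22a18 by -0.16 (-0.53 to 0.22) and -0.25 (-0.63 to 0.13).

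**Figure D5:**
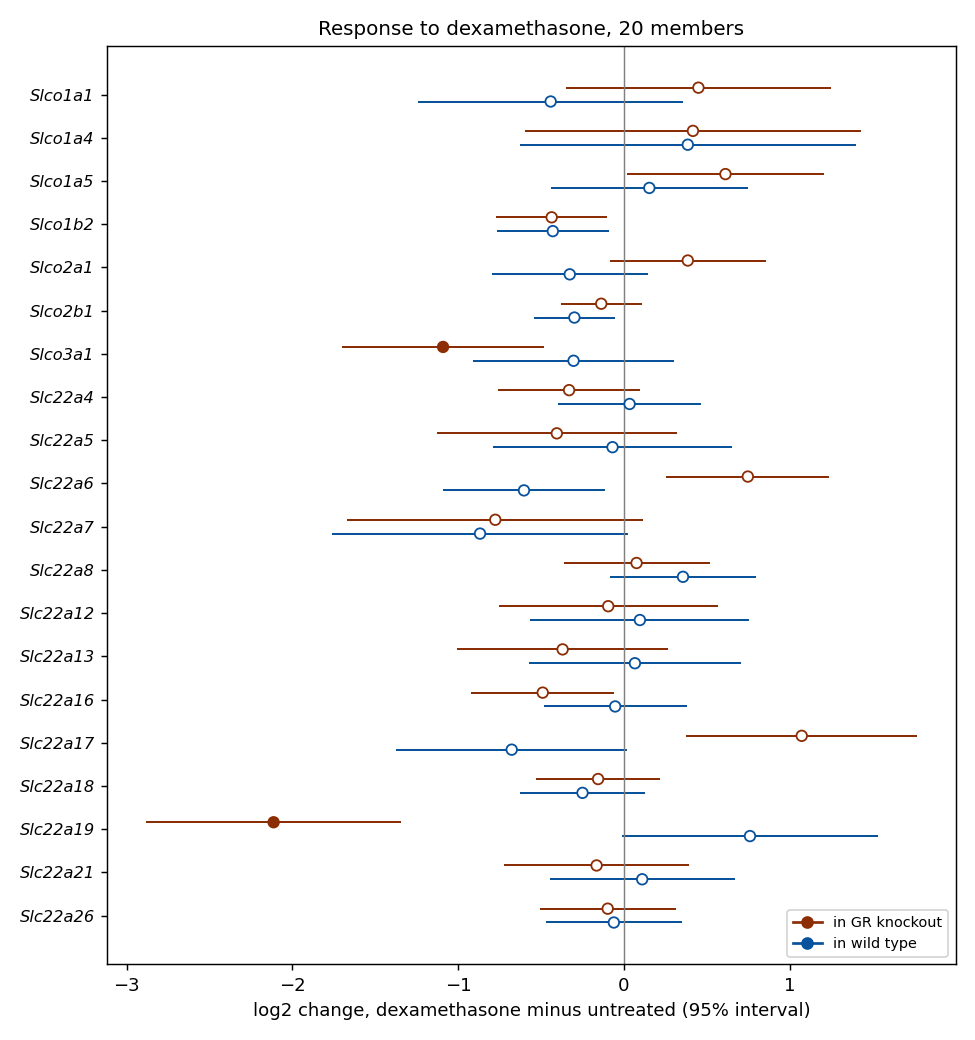
Log2 change with dexamethasone and its 95% interval for 20 of the 21 members tested, in GR knockout (brown) and wild type (blue), filled where the adjusted p was under 0.05. Slc22a19 and Slco3a1 in the knockout are the filled points, at -2.11 and -1.09, and no wild-type point is filled.

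Of the 12 members that did not pass the filter, Slco4c1, known as the OATP of the kidney tubule, stood out. It was well above background on 2 of the 4 WT Dex arrays and on no array of the other groups. Its level was -7.05, -6.65, -6.50 and -7.71 in GRKO Dex livers, -6.22, -7.17, -7.40 and -7.24 in GRKO untreated livers, -2.96, -5.35, -3.88 and -5.03 in WT Dex livers and -7.18, -7.03, -7.23 and -6.40 in WT untreated livers. All WT Dex arrays lay above the other 12. The other Slco4c1 probe was above background on 0 of the 16 arrays and so gives no check of these values. With WT untreated signals raised to the lowest signal called above background on each array, the WT Dex mean was 1.45-fold that of WT untreated. This is not a lower bound, because only 2 of the 4 WT Dex signals in that mean were well above background. Without the filter the rise in WT was called (fitted log2 2.66, adjusted p = 0.00486, beside 5.7% of 27669 genes), and so was the difference of GRKO from WT livers with dexamethasone (fitted -2.67, adjusted p = 0.00204, beside 12% of genes). The fitted sizes rest on signals near background. Slco5a1 was also called without the filter, for dexamethasone in GRKO livers (adjusted p = 0.0135, beside 1.44% of genes), but was above background on no array, so no fold is given.

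Further family genes stand on the array under other names and were not counted as members. Slc22a15, Slc22a22, Slc22a23, Slc22a29 and Slc22a30 were named through their accessions or synonyms. Slc22a22 was above background on no array, and none of the other 4 was called in any comparison. Slc22a29, of the same chromosome 19 run as Slc22a26 in RefSeq, though its probe is placed on an unassigned contig of mm7, had the largest difference, with levels of -2.53, -2.72, -3.27 and -2.23 in GRKO Dex livers, -3.60, -2.85, -1.89 and 0.07 in GRKO untreated livers, -4.99, -5.43, -4.83 and -3.01 in WT Dex livers and -5.09, -4.12, -3.19 and -4.58 in WT untreated livers. The Slc22a29 signal was well above background on 4, 4, 2 and 2 of the 4 arrays of these groups. It therefore passed the filter only through the GRKO groups. It differed between genotypes by a log2 value of 1.88 with dexamethasone (SE 0.684, adjusted p = 0.0623) and 2.18 untreated (SE 0.684, adjusted p = 0.0996). These sizes rest partly on WT signals that were not well above background. Slc22a30, at the end of that run, differed by 0.50 (adjusted p = 0.0607) and 0.01 (adjusted p = 0.985).

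Other carriers of bile acids, drugs and organic ions were listed beside the members. For the lists here, the share of all genes called was 22.3% between genotypes with dexamethasone and 2.81% untreated. It was 11.9% for dexamethasone in WT, 3.55% in GRKO and 4.58% for the difference in response. No list was tested against these shares. Of 21 tested, 5 were higher and 3 lower in GRKO than in WT livers with dexamethasone, 1 was higher untreated, and 1 rose and 2 fell with dexamethasone in WT, while none was called for dexamethasone in GRKO or for a difference in response. Between GRKO and WT livers with dexamethasone the 6 with the largest changes were Slc51b, a basolateral bile acid exporter (log2 2.60), Abcb1a, a drug efflux pump (2.37), Abcc4, an export pump of organic anions (1.67), Slc2a9, a urate carrier (0.98), Slc17a3 (0.58) and Slc10a2, a sodium-dependent bile acid carrier (-1.42). The median log2 difference was 0.10, close to the 0.09 of all genes. Of 19 tested regulators and scaffolds of such genes, 5 were higher and 3 lower in the same comparison, the 6 with the largest changes being Nfe2l2 (0.98), Slc9a3r1 (0.82), Pdzk1 (0.63), Cebpb (-1.37), Hnf4a (-1.15) and Ahr (-0.99). Hnf4a, a hepatocyte nuclear receptor, rose with dexamethasone in WT livers (0.59, adjusted p = 0.0374), where Slc9a3r1, Ppara and Nr1i3 fell, and Stat5b fell in GRKO livers (-0.62, adjusted p = 0.0259). None of these regulators was called between untreated genotypes. Of 11 female-biased liver genes tested, 4 rose with dexamethasone in WT livers, among them Cyp2b13, Cyp2b9 and Sult3a1. None was called in GRKO livers, where 3.55% of all genes were. The response to dexamethasone differed between genotypes for 1 of the 11, with a lower change in GRKO livers (4.58% of all genes were called). Between genotypes with dexamethasone the 4 that rose in WT livers were lower in GRKO livers and Acot3 and Hao2 higher, Hao2 also untreated. Of 11 male-biased genes, Nudt7 fell in WT livers, and in GRKO Dex livers Nudt7 was higher and Elovl3 lower than in WT Dex livers. Neither Slco1a1 nor Slco1a4 was called in any of these comparisons.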

How the data were processed

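The data were 16 one-colour scanner files, 4 per group, read with the deposited table of processed values, which differed from them by at most 0. Per the file headers, the authors' spot intensities came from Agilent Feature Extraction 9.5, whose processed signal is already background-corrected, with probe positions on mm7, and the deposited flags for saturation, outlying spots and signal well above background came from the same software.

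Of 45018 spots an array, 1639 controls were left out, and outlying spots (0.306%) were set missing. Log2 processed signal minus the array's 75th percentile was used. Probes had to be well above background on at least 3 of 4 arrays of any group, which left 26794 probes, and the brightest stood for its gene (18475 genes). Probes took the RefSeq name through accession (22951) or symbol (9768), and 8455 kept the file's name. limma 3.58.1 in R 4.3.3 fitted all 16 arrays with 4 group means (12 residual df), and p-values were adjusted by Benjamini-Hochberg over all genes, two-sided, at 0.05. There were 5 comparisons. "Called" means past that threshold. The fits were checked on simulated data.

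Members called anywhere were named with their values on every array. Uncalled members given array by array or with intervals were chosen after their values were seen. The members, the gene lists and the marker lists were chosen with earlier results of these data known. Alternatives were normexp correction (offset 50), quantile scaling, a percentile over probes above background on all arrays, no filter, a stricter filter, outlying spots kept, the mean of a gene's probes, a trended robust variance, array weights, the replicate number as a block, the deposited table, only the groups compared, each array left out, and both dim arrays left out. Fitting each probe by itself was added after the data were seen. Replicate numbers follow slide positions, and no label ties them to a shared litter or day. Promoters came from RefSeq (GRCm38.p6) and no coordinates were converted between builds. The values of 1 member and 1 listed gene, counted in the totals, are not reported here.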

Additional observations from a re-analysis of the deposited data

Results flagged for a closer look

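Among 84 groups of 4 arrays, 4 held 1 array far from the other 3, by the gap to its nearest neighbour as a share of the group's range, and chance gives about 1 in 20. For Slc22a19 the share was 0.842 in WT Dex livers, where array 3 was at -3.51 and the others at -3.86 to -3.81. For Slc22a21 it was 0.873 and for Slc22a5 0.848 in WT untreated livers. There array 4, one of the 2 dimmest arrays, was at -1.37 against -2.01 to -1.93 and at 1.36 against 0.46 to 0.60. Array 4 was the highest of its group for both genes in the other groups too, where it was not among the 2 dimmest. In GRKO Dex, GRKO untreated and WT Dex livers it was at -1.435, -1.622 and -1.086 for Slc22a21 and 0.725, 1.256 and 1.723 for Slc22a5. The cause was not tested. For Slco2a1 it was 0.851 in WT Dex livers, where array 1 was at 2.64 and the others at 3.13 to 3.22.

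The response to dexamethasone differed between GRKO and WT livers for 3 members. The difference in log2 change was 1.75 for Slc22a17 (limma, adjusted p = 0.0433), -2.87 for Slc22a19 (adjusted p = 0.00693) and 1.35 for Slc22a6 (adjusted p = 0.0289).

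Slco4c1, which did not pass the filter, averaged -4.30 in WT Dex livers with 2 of 4 arrays well above background, and -6.96 in WT untreated livers with 0 of 4.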

How the results depend on the processing

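Of the 13 called member results, none changed sign under any alternative, and those of Slc22a26 (both genotype comparisons) and of Slc22a17 and Slc22a6 between GRKO and WT livers with dexamethasone were called under all. The other 9 lost their call under at least 1. The deposited table held the same values as the scanner files, so that alternative could not move any result. Counts of members called moved as follows. For dexamethasone in GRKO (2 members) the count was 0 with normexp correction, 0 with only the groups compared, 1 with the percentile over probes above background on all arrays and 4 with array weights. For dexamethasone in WT (0 members) it was 3 with array weights, and 1 each with quantile scaling, no filter, only the groups compared and both dim arrays left out. For the difference in response (3 members) it was 0 with normexp and 1 without the filter. For GRKO against WT untreated (2 members) it was 4 with array weights, and 1 each with normexp, no filter, only the groups compared and both dim arrays left out. With the replicate block the counts were 2, 1, 3, 2 and, with dexamethasone in both genotypes (6 members), 5. Under that block both Slco3a1 calls were lost, and Slc22a6 was called for dexamethasone in GRKO (0.75, adjusted p = 0.0336) and in WT (-0.60, adjusted p = 0.0427). The numbers were not taken as pairs, since no label ties them to a shared litter or day. Of 24 same-numbered pairs, 10 had residuals correlated above 0.1 (-0.186 to 0.347), and 10 of 16 arrays correlated best with their own number. These values hint, from the data and not the design, at something shared by number or slide position. Leaving out each array gave 1 to 2, 0 to 1, 1 to 3, 1 to 3 and 3 to 7 in the same order. The causes were not tested.

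The Slco3a1 fall in GRKO was kept only without WT untreated array 4, WT Dex array 1 or 2 or GRKO untreated array 4, and that from WT Dex was lost without WT Dex array 2, 3 or 4 or any GRKO Dex array. The Slc22a17 difference in response was kept only without WT Dex array 4 or GRKO untreated array 1 or 3 (log2 1.44 to 2.06 over all arrays left out). That of Slc22a6 was lost without WT untreated array 1, or array 2 or 3 of any other group (1.17 to 1.52). For Slc22a19, the untreated difference was lost without any WT untreated array or GRKO untreated array 1, 2 or 4 (1.29 to 1.72), and that with dexamethasone without GRKO Dex array 3 or 4 (-1.71 to -1.06). The Slc22a4 difference was lost without array 1 or 4 of either Dex group, WT Dex array 2 or GRKO Dex array 3 (-0.79 to -0.54). Of 92 uncalled results, 12 were called under some alternative, among them Slco1b2 for dexamethasone in WT with quantile scaling (-0.42, adjusted p = 0.0462) and array weights (-0.45, adjusted p = 0.0184). Signal near background limits Slc22a19 and the 12 members that did not pass the filter.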
